A study of Mus musculus with 24 samples.

Results

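The genes described here, Lyn, Btk, Rasgrp3, Ralgps2 and Egr2, act in or after B cell antigen receptor signalling. They were followed through sorted lung and circulating B cells of mice that had been exposed to an allergen and exposed again. The 5 rows were taken by gene symbol from the 18470 genes of the deposited count table, and all 5 passed the filter on low counts that left 6779 genes for testing. Mice received house dust mite extract by the intranasal route and were rechallenged with the same allergen 6 weeks later. The 24 bulk RNA libraries form 6 groups of 4, made of 3 sorted populations in 2 genotypes. The populations are lung CCR6+CD69+ cells, lung CCR6-CD69- cells and cells labelled circulating csMBC. The wild-type (WT) mice are SCAP +/+ hCD20-TamCre and the SCAP cKO mice are SCAP fl/fl hCD20-TamCre, so both genotypes carry the tamoxifen-dependent Cre whose expression the human CD20 promoter directs to B cells. SCAP escorts the SREBP transcription factors that control sterol and fatty acid synthesis, and it was deleted before recall. In every group replicates 1 and 2 belong to batch 1 and replicates 3 and 4 to batch 2. The labels do not say whether the replicates are separate animals, so p-values measure the spread between these libraries, which may be technical. The source label reads lung B cell for all 24 libraries, the circulating ones included.

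When antigen binds the B cell receptor, the Src-family kinase Lyn phosphorylates the receptor's signalling chains and also inhibitory coreceptors, so Lyn both starts and restrains the signal. The Tec-family kinase Btk then activates phospholipase C-gamma, whose product diacylglycerol recruits the Ras activator Rasgrp3, while Ralgps2 activates the related small GTPase Ral. Egr2 is a zinc finger transcription factor of the early growth response family, which lymphocytes induce within hours of receptor engagement. Ms4a1 encodes CD20, a B cell surface protein, and serves here as a measure of B cell RNA.

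The differences between populations concerned Egr2 and Rasgrp3, so 1 promoter window of each is printed, the first of those with the most motif matches. The windows run from 250 bases before to 50 bases after an annotated start, on the GRCm38.p6 build, from RefSeq, and 4 of the 5 genes had at least 1 window. Capitals mark matches to any of 11 motifs, searched on both strands. The Egr2 window is chr10:67537619-67537918 on the plus strand and the Rasgrp3 window is chr17:75435655-75435954 on the plus strand.
Egr2: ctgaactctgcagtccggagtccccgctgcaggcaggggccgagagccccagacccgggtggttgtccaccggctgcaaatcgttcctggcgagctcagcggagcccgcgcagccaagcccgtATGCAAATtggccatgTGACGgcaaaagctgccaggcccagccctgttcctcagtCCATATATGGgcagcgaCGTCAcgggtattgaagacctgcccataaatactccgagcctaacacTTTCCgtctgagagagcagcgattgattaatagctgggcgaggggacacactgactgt
Rasgrp3: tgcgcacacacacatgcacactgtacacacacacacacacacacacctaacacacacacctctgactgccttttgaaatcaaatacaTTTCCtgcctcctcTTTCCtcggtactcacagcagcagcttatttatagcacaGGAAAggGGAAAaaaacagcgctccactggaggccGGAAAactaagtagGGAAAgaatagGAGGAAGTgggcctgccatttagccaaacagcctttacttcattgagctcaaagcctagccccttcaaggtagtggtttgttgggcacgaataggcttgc

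In the first of these the capitals are, in order, an octamer ATTTGCAT on the minus strand, TGACG (the core of a cyclic AMP response element), a CArG box (the site of serum response factor), TGACG on the minus strand, and the NFAT core GGAAA on the minus strand. The CArG box begins 72 bases before the start, and a CArG box was found in 1.63% of all 32851 windows of this length. The octamer was found in 1.74% of those windows, TGACG in 20.8% and GGAAA in 61.3%. The Rasgrp3 window held 6 matches to GGAAA and 1 to GAGGAAGT, a PU.1 site whose share of all windows was 3.20%. Of the 5 Egr2 windows, the first held no match and the second held another CArG box and 3 matches to GGAAA, while the remaining ones overlap the one printed and repeat its matches. The Btk window held a single GGAAA, and neither of the Ralgps2 windows held any match. The other motifs searched were GCGTGGGCG and GCGGGGGCG (Egr sites, 0.612% and 2.91% of windows), TGACGTCA (1.79%, a full cyclic AMP response element that contains the TGACG core), the AP-1 site TGANTCA (7.81%), the ETS site CCGGAAG (8.86%) and the SREBP site TCACNCCAC (1.24%), and none of these was matched in any window of the 4 genes. A match is a description of letters and does not show that a factor binds there.

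Library totals ran from 129025 to 8566243 counts, and 3 counts correspond to 0.350 to 23.3 CPM (counts per 1000000 counts), the limit for a gene at 0. The smallest libraries were SCAP cKO lung CCR6-CD69- replicate 4, at 129025 counts, and WT circulating replicate 2, at 356782 counts. Ribosomal protein genes took 8.52 to 14.2% of the counts of batch 1 libraries and 2.51 to 3.59% of those of batch 2. Chil3, a gene of lung macrophages, had the most counts of any gene in WT lung CCR6-CD69- replicate 2 and SCAP cKO lung CCR6-CD69- replicate 1, where the 17 macrophage and monocyte markers with a row summed to 38680 and 52350 CPM. The 8 natural killer (NK) cell markers with a row summed to 1333 to 3038 CPM in the circulating libraries and to 0.0 to 76.7 CPM in the lung libraries. The sum of the 8 B cell markers with a row was 4509 to 6039 CPM in the CCR6+CD69+ lung group, 2934 to 5937 CPM in the CCR6-CD69- lung group and 2677 to 6545 CPM in the circulating group, over both genotypes. The targeted gene Scap did not separate the genotypes. Its WT and SCAP cKO means were 86.6 and 82.7 CPM for lung CCR6+CD69+ cells, 149 and 90.0 CPM for CCR6-CD69- cells, and 104 and 223 CPM for circulating cells. A count over the whole gene can include exons outside the deleted part, so the row does not check the deletion, and SCAP cKO below means the libraries so labelled.

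Egr2 was higher in both lung populations than in circulating cells when the genotypes were averaged, and it was the member with the widest span between groups. In WT lung CCR6+CD69+ replicates 1 to 4 it stood at 636, 789, 989 and 1179 CPM, in lung CCR6-CD69- replicates at 252, 778, 483 and 345 CPM, and in circulating replicates at 92.8, 39.2, 74.6 and 58.9 CPM. In SCAP cKO it stood at 678, 827, 1025 and 680 CPM in lung CCR6+CD69+ replicates, at 468, 205, 211 and 15.5 CPM in lung CCR6-CD69- replicates, and at 106, 240, 66.4 and 61.6 CPM in circulating replicates. Every lung CCR6+CD69+ library was above every circulating library in both genotypes. The WT lung CCR6-CD69- libraries were all above the WT circulating ones, whereas in SCAP cKO these populations overlapped. The share of all genes separated in this way was counted only for ratios to Ms4a1, not for CPM. Both Chil3-led libraries held the highest Egr2 value of their group, 778 and 468 CPM, and the lowest lung value, 15.5 CPM, came from the smallest library and rests on 2 counts.

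Group means gave the order WT lung CCR6+CD69+ (898 ± 236 CPM, SD, n = 4), SCAP cKO lung CCR6+CD69+ (802 ± 164), WT lung CCR6-CD69- (465 ± 230), SCAP cKO lung CCR6-CD69- (225 ± 186), SCAP cKO circulating (119 ± 83.5) and WT circulating (66.4 ± 22.8). The first and second of these differed by less than the larger of their SDs, as did the SCAP cKO lung CCR6-CD69- and SCAP cKO circulating means, and the circulating means of both genotypes. Fitted over all genes with edgeR's quasi-likelihood test, with scaling by trimmed means (TMM) and a batch term, Egr2 was higher in WT lung CCR6+CD69+ than in WT circulating cells by a log2 fold change of 3.74 ± 0.65 (SE), a fold of 13.4, with a Benjamini-Hochberg adjusted p of 1.93e-04. In SCAP cKO the same comparison gave 2.58 ± 0.63 (edgeR adjusted p = 0.0115). The average over the genotypes was 3.16 ± 0.45 (95% interval 2.20 to 4.12, edgeR adjusted p = 6.26e-07). Against circulating cells, lung CCR6-CD69- cells had more Egr2 by 2.62 ± 0.62 in WT (edgeR adjusted p = 0.0490) and by 0.65 ± 0.59 in SCAP cKO (edgeR adjusted p = 0.607), with an average of 1.64 ± 0.42 (edgeR adjusted p = 0.0264). Without the Chil3-led libraries that average was 1.25 and missed the threshold (edgeR adjusted p = 0.203), and the WT value was 2.45 (edgeR adjusted p = 0.199). Leaving out single libraries ended the WT call in 17 of 24 cases and the averaged call in 7 of 24, with averaged adjusted p-values up to 0.100 (edgeR, without SCAP cKO lung CCR6-CD69- replicate 1). The call in SCAP cKO lung CCR6+CD69+ cells ended without replicate 3 of that group (edgeR adjusted p = 0.0697) and without SCAP cKO circulating replicate 3 (0.0706) or 4 (0.0661).

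**Figure D1:**
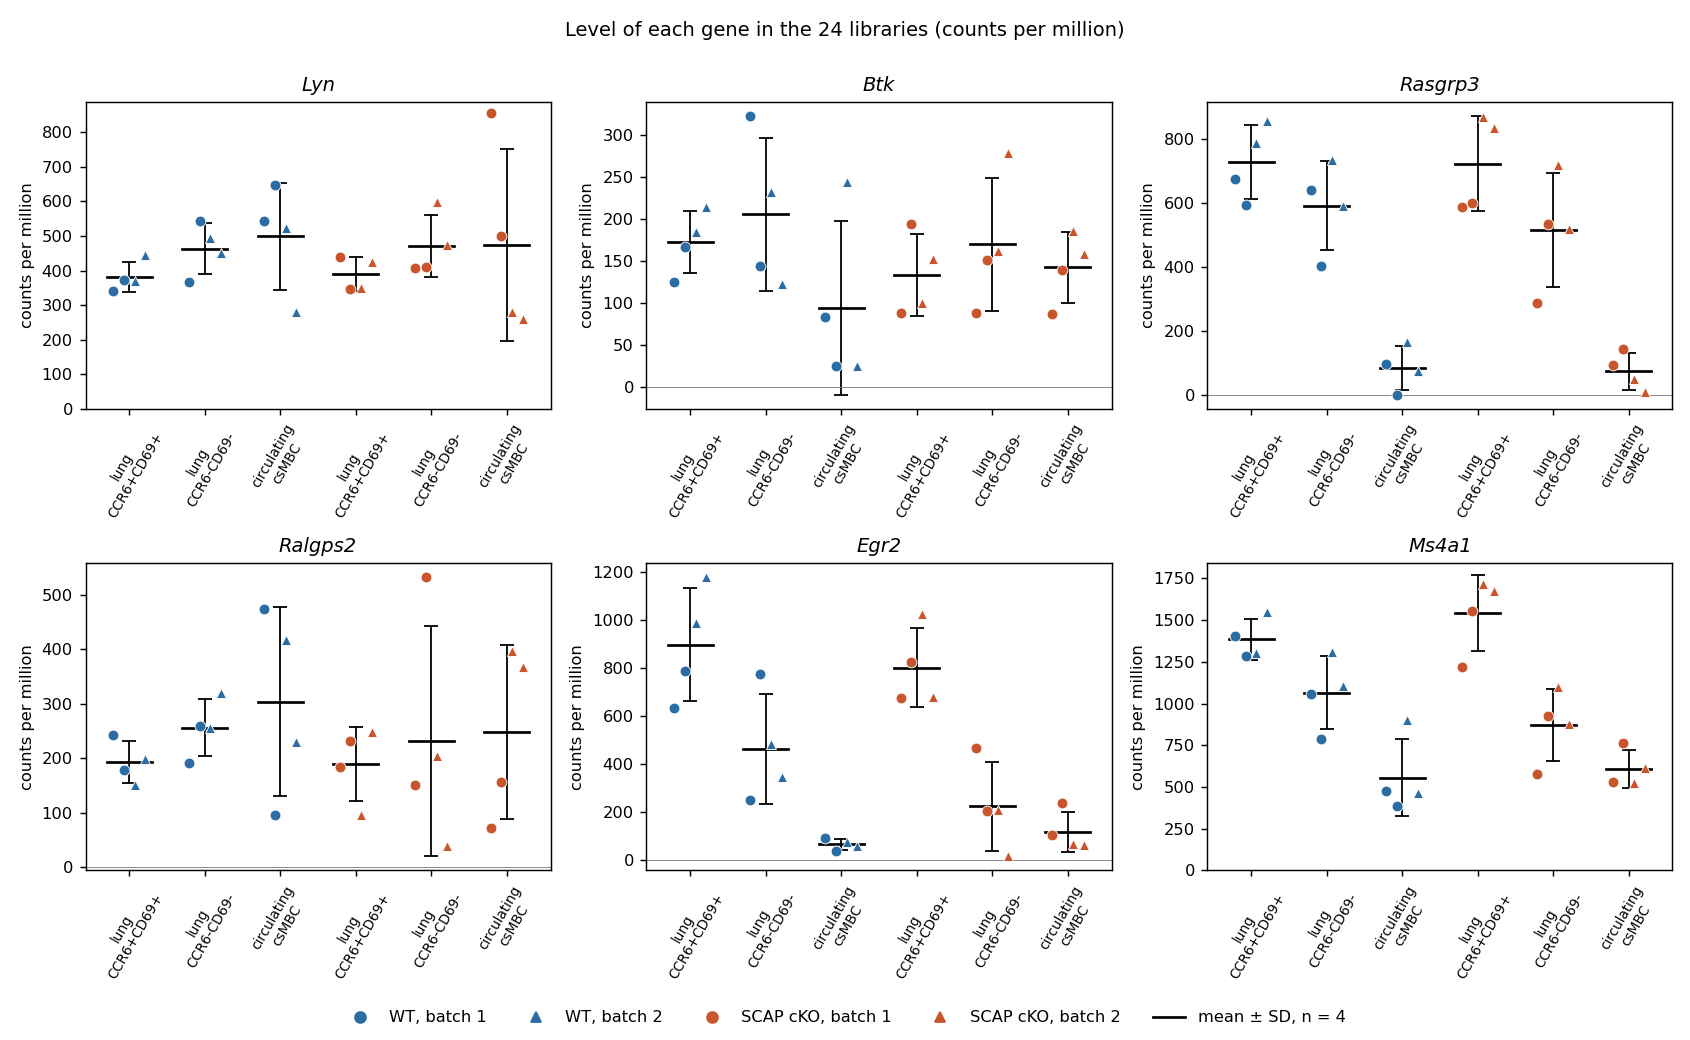
Level of the 5 genes and Ms4a1 in each of the 24 libraries, in CPM on a linear axis. Circles are batch 1, triangles batch 2, blue WT and orange SCAP cKO, and the bars give the mean and SD of 4 libraries. For Rasgrp3 all 16 lung libraries lie above all 8 circulating ones, while Lyn, Btk and Ralgps2 overlap between populations. The share of all genes separated in this way was not counted for CPM.

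Between the lung populations, Egr2 was higher in CCR6+CD69+ than in CCR6-CD69- cells by 1.12 ± 0.59 in WT (edgeR adjusted p = 1.000), 1.92 ± 0.61 in SCAP cKO (0.199) and 1.52 ± 0.43 on average (0.0501), and none of these passed the threshold of 0.05. The averaged value passed in 16 of 37 alternative settings, among them the fits without the Chil3-led libraries and with DESeq2. Macrophages also express Egr2 and Lyn, and the macrophage and monocyte list ranged from 128 to 3688 CPM in lung CCR6+CD69+ libraries, from 1123 to 52350 CPM in lung CCR6-CD69- libraries and from 794 to 5221 CPM in circulating libraries. Beyond the values without the Chil3-led libraries, all of them from lung CCR6-CD69- cells, the part of macrophage RNA in the Egr2 and Lyn values was not tested.

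Rasgrp3, the diacylglycerol-responsive Ras activator, was higher in both lung populations than in circulating cells, at nearly the same level in each genotype. WT lung CCR6+CD69+ replicates 1 to 4 had 673, 593, 788 and 855 CPM, WT lung CCR6-CD69- replicates had 639, 401, 732 and 590 CPM, and WT circulating replicates had 98.1, 0.0, 165 and 73.6 CPM. The 0 in circulating replicate 2 is 0 counts in a small library, which allows up to 8.41 CPM, for counting error alone. In SCAP cKO the values were 587, 600, 867 and 834 CPM in lung CCR6+CD69+ replicates, 286, 535, 718 and 519 CPM in lung CCR6-CD69- replicates, and 93.2, 143, 48.7 and 9.08 CPM in circulating replicates. The lowest lung library, at 286 CPM, is a Chil3-led one, and it was still above the highest circulating library, at 165 CPM. As for Egr2, the share of all genes separated in this way was not counted for CPM. The 4 lung group means, from 514 ± 177 to 727 ± 117 CPM (SD, n = 4), lay less than 1 SD from their neighbours in order. A gap of 430 CPM separated them from the circulating means of 84.3 ± 68.3 and 73.5 ± 57.7 CPM.

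Rasgrp3 rose in lung CCR6+CD69+ against circulating cells by a log2 fold change of 2.98 ± 0.72 in WT (edgeR adjusted p = 0.0181), 2.85 ± 0.73 in SCAP cKO (0.0241) and 2.91 ± 0.51 on average (8.79e-05). In lung CCR6-CD69- cells the average was 2.54 ± 0.51 (edgeR adjusted p = 0.00195), while the single genotypes gave 2.68 ± 0.71 (0.136) and 2.39 ± 0.72 (0.127). The 2 lung populations differed by 0.38 ± 0.47 on average (95% interval -0.62 to 1.38, edgeR adjusted p = 0.910). The WT call ended without WT lung CCR6+CD69+ replicate 4 (edgeR adjusted p = 0.0612), WT circulating replicate 4 (0.0881) or SCAP cKO lung CCR6-CD69- replicate 4 (0.0840), and the SCAP cKO call ended in 8 of 24 such fits. The averaged call in lung CCR6+CD69+ cells held in all 37 alternatives, with an edgeR adjusted p of at most 0.0259.

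Across the 5 genes, lung CCR6+CD69+ against circulating cells gave 2 calls in each genotype and 2 on average, all of them Egr2 and Rasgrp3 and all higher in lung. Over all 6779 genes, 1.18% were called in WT in either direction and 0.162% were called higher, 1.53% and 0.0738% in SCAP cKO, and 4.87% and 1.55% on average. The 5 genes were chosen with earlier results of these data known. The shares in this paragraph give the background and do not test the 5 genes as a set. The split of the averaged calls moved with the scaling, since 31.8% of the 330 called genes were higher in lung with TMM factors and 45.1% of 424 with library totals. For lung CCR6-CD69- cells the averaged shares called higher were 35.8% of 106 with TMM, 49.2% of 130 with relative log expression factors and 52.6% of 152 with library totals. Lung CCR6-CD69- against circulating cells gave 1 call in WT (Egr2), 0 in SCAP cKO and 2 on average (Egr2 and Rasgrp3), against 0.177%, 0.31% and 1.56% of all genes in either direction and 0.0295%, 0.0295% and 0.561% called higher. The comparison of the lung populations called 0 of the 5 genes in WT, in SCAP cKO and on average, against 0.295%, 0.457% and 1.45% of all genes. At an unadjusted p under 0.05, edgeR passed 8 of the 30 member tests within a genotype, 4 of Rasgrp3 and 4 of Egr2, where the share of all genes at that p ran from 3.33 to 14.2% over the 6 comparisons.

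**Figure D2:**
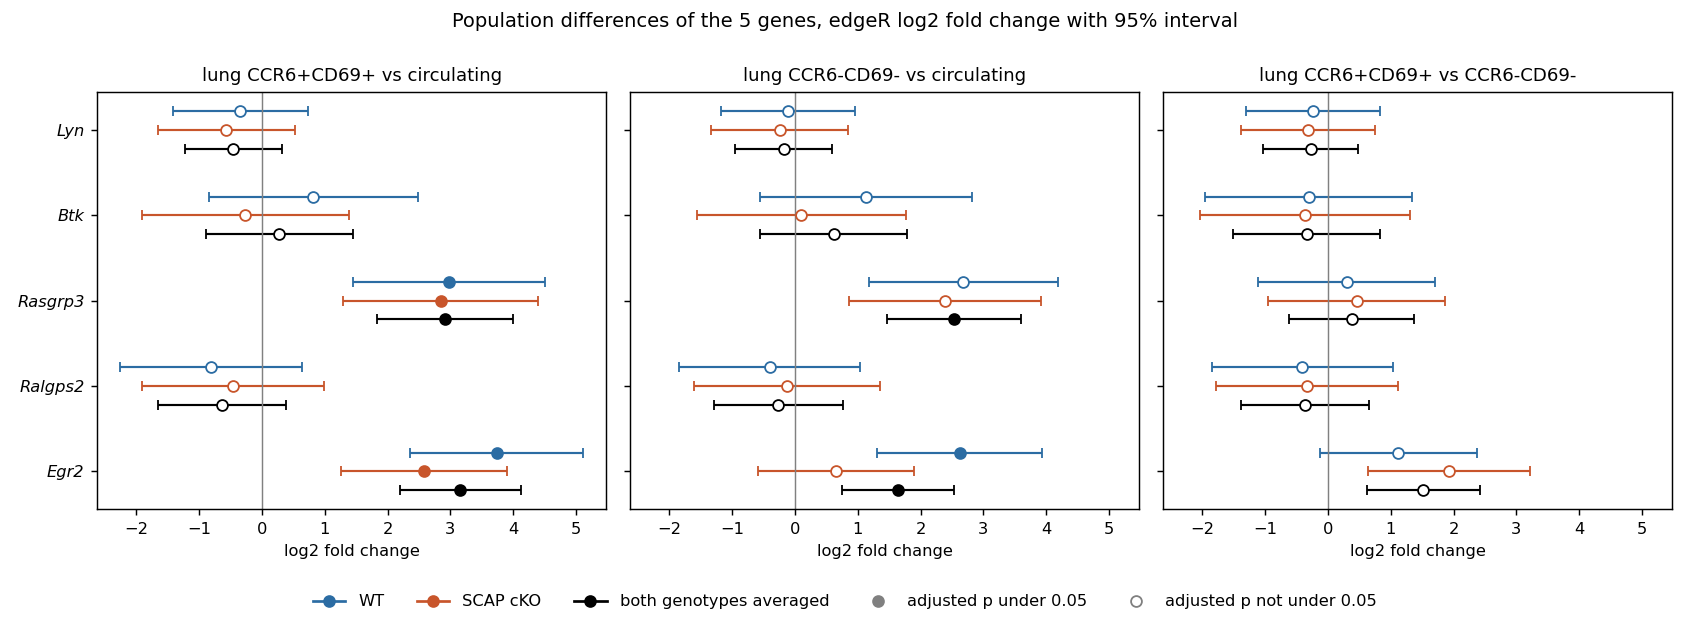
Log2 fold changes of the 5 genes between populations from edgeR, with 95% intervals on 17 residual degrees of freedom, in WT, SCAP cKO and the average of both. Filled points have an adjusted p under 0.05. They belong to Egr2 and Rasgrp3, and the intervals of Lyn, Btk and Ralgps2 include 0 in all 3 panels.

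The receptor-proximal kinases were not called in any comparison. Lyn had 341, 373, 370 and 444 CPM in WT lung CCR6+CD69+ replicates 1 to 4, 367, 543, 494 and 452 CPM in WT lung CCR6-CD69- replicates, and 544, 648, 524 and 281 CPM in WT circulating replicates. Its SCAP cKO values were 440, 346, 349 and 425 CPM, 407, 409, 599 and 473 CPM, and 855, 500, 280 and 259 CPM in the same order. The lung CCR6+CD69+ libraries sat in a narrow range, whereas the circulating ones spanned it on both sides. The 6 group means lay between 382 ± 43.6 and 499 ± 155 CPM, and no neighbours in their order differed by more than the larger SD. The averaged log2 fold changes were -0.46 ± 0.36 for lung CCR6+CD69+ against circulating cells (95% interval -1.23 to 0.31, edgeR adjusted p = 0.594), -0.18 ± 0.37 for lung CCR6-CD69- against circulating cells (-0.95 to 0.59) and -0.28 ± 0.36 between the lung populations (-1.03 to 0.48).

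Btk had 126, 167, 185 and 215 CPM in WT lung CCR6+CD69+ replicates, 323, 144, 233 and 123 CPM in WT lung CCR6-CD69- replicates, and 83.1, 25.2, 245 and 25.1 CPM in WT circulating replicates. In SCAP cKO it had 88.0, 194, 99.9 and 153 CPM, 88.6, 151, 162 and 279 CPM, and 86.6, 140, 186 and 158 CPM in the same order. The WT circulating libraries ranged from 25.1 to 245 CPM and so overlapped every other group. Group means ran from 94.6 ± 104 CPM in WT circulating to 206 ± 91.6 CPM in WT lung CCR6-CD69- libraries, with no gap between neighbours above the larger SD. The averaged differences were 0.28 ± 0.55 (95% interval -0.89 to 1.44, edgeR adjusted p = 0.869) and 0.62 ± 0.56 (-0.56 to 1.79) for CCR6+CD69+ and CCR6-CD69- lung cells against circulating cells, and -0.34 ± 0.55 (-1.51 to 0.83) between the lung populations.

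Ralgps2, the Ral activator, followed neither Rasgrp3 nor Egr2. In WT it had 243, 179, 151 and 198 CPM in lung CCR6+CD69+ replicates, 191, 259, 256 and 319 CPM in lung CCR6-CD69- replicates, and 474, 95.3, 417 and 229 CPM in circulating replicates. In SCAP cKO it had 184, 231, 96.1 and 248 CPM, 151, 532, 205 and 38.8 CPM, and 71.8, 157, 398 and 367 CPM in the same order. The SCAP cKO lung CCR6-CD69- libraries spread most, and their lowest value rests on 5 counts. Group means lay between 190 ± 68.1 and 304 ± 174 CPM. The averaged differences were -0.64 ± 0.49 (95% interval -1.66 to 0.39, edgeR adjusted p = 0.567), -0.26 ± 0.49 (-1.29 to 0.76) and -0.37 ± 0.48 (-1.39 to 0.65) in the order used for Btk. Angptl1, a gene that lies inside Ralgps2, had 0 counts in all libraries.

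The genotypes were compared to see whether loss of SCAP goes with a change in these genes. None of the 15 tests of SCAP cKO against WT passed, with log2 fold changes from -0.94 to 1.03 and edgeR adjusted p-values from 0.578, and 0 had an unadjusted p under 0.05. Over all genes edgeR called 0.0% in each population, with 155 genes at an unadjusted p under 0.05 in lung CCR6+CD69+, 496 in CCR6-CD69- and 693 in circulating cells, where DESeq2 called 5, 90 and 233 genes. The values furthest from 0 were both of Egr2, at -0.94 ± 0.59 in lung CCR6-CD69- cells (95% interval -2.19 to 0.32) and 1.03 ± 0.60 in circulating cells (-0.24 to 2.30). The circulating value of Egr2 came from batch 1, and a fit to batch 2 by itself gave -0.09. In lung CCR6+CD69+ cells the 5 genes ranged from -0.26 for Btk to 0.11 for Lyn, and the intervals of Egr2 (-1.36 to 1.09) and Rasgrp3 (-1.33 to 1.49) still allow a change of more than 2-fold in either direction.

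The difference between genotypes in each of 3 population contrasts was tested as an interaction, and 0 of 15 tests passed. In order, the contrasts were lung CCR6+CD69+ against circulating, lung CCR6-CD69- against circulating, and lung CCR6+CD69+ against lung CCR6-CD69- cells. Egr2 in lung CCR6-CD69- against circulating cells came nearest, with -1.97 ± 0.84 (unadjusted p = 0.0216, edgeR adjusted p = 0.487). That Egr2 passed in WT and not in SCAP cKO lung CCR6-CD69- cells is therefore not shown to be a difference between the genotypes. Over all genes edgeR called 0.0% in each of the 3 interactions, with 367, 575 and 235 genes at an unadjusted p under 0.05, and DESeq2 called 30, 102 and 6. For Rasgrp3 the interaction terms lay between -0.28 and 0.15.

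Levels were next set against Ms4a1 in the same library, since the sorted populations may differ in B cell RNA. In bulk libraries fewer cells of a type and less RNA per cell cannot be told apart. Ms4a1 itself had group means of 1385 ± 123 and 1542 ± 227 CPM (SD, n = 4) in WT and SCAP cKO lung CCR6+CD69+ libraries, 1066 ± 217 and 870 ± 215 CPM in lung CCR6-CD69- libraries, and 557 ± 232 and 608 ± 112 CPM in circulating libraries. It was higher in lung CCR6+CD69+ than in circulating cells by a log2 fold change of 1.17 ± 0.29 on average (edgeR adjusted p = 0.00874), and a gene that follows total RNA therefore falls against it. Of 45 ratio tests (5 genes, 9 comparisons, exact permutation, two-sided), 15 reached the smallest p that 4 against 4 libraries can give, 0.0286, and the Benjamini-Hochberg adjusted p of those was 0.0857, so 0 of 45 passed. The 15 are the comparisons in which the groups did not overlap. Libraries were permuted across both batches, so these p-values take no account of batch.

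Against Ms4a1 the lung populations had Rasgrp3 at nearly constant proportion. Its counts per 100 Ms4a1 counts were 47.9, 46.2, 60.5 and 55.1 in WT lung CCR6+CD69+ replicates, 60.3, 51.1, 55.8 and 53.2 in WT lung CCR6-CD69- replicates, and 20.5, 0.0, 18.4 and 15.9 in WT circulating replicates. In SCAP cKO they were 48.1, 38.5, 50.5 and 49.7, then 49.3, 57.6, 65.4 and 59.3, then 17.5, 18.7, 9.30 and 1.48. The 16 lung libraries ran from 38.5 to 65.4 and the 8 circulating ones from 0.0 to 20.5, with no overlap. The log2 differences from circulating cells were 2.93 and 3.01 in WT and 2.49 and 2.80 in SCAP cKO for CCR6+CD69+ and CCR6-CD69- cells (exact permutation p = 0.0286 each). Without the libraries under 500000 counts, 1 of which is the WT circulating library at 0, the WT values were 1.52 and 1.60. Without SCAP cKO circulating replicate 4, the lowest of its group at 1.48, the SCAP cKO values were 1.67 and 1.98 rather than 2.49 and 2.80, and the groups still did not overlap. Within batches 1 and 2 they were 4.11 and 1.75 for WT lung CCR6+CD69+ cells and 1.25 and 3.73 for SCAP cKO ones. Over all other genes tested, 2.29%, 1.22%, 1.14% and 0.398% were higher without overlap in these 4 comparisons, in the order given.

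Egr2 per 100 Ms4a1 counts was 45.2, 61.5, 76.0 and 76.0 in WT lung CCR6+CD69+ replicates, 23.8, 99.1, 36.8 and 31.2 in lung CCR6-CD69- replicates and 19.4, 10.1, 8.30 and 12.7 in circulating replicates. In SCAP cKO the values were 55.6, 53.1, 59.7 and 40.5, then 80.7, 22.1, 19.2 and 1.77, then 19.9, 31.4, 12.7 and 10.0. The highest value in each genotype came from a Chil3-led library. The log2 difference from circulating cells was 2.38 in WT and 1.62 in SCAP cKO for lung CCR6+CD69+ cells, and 1.74 in WT lung CCR6-CD69- cells (exact permutation p = 0.0286 each), and it was -0.02 in SCAP cKO lung CCR6-CD69- cells (exact permutation p = 0.971). Without the Chil3-led libraries the WT lung CCR6-CD69- value was 1.31. The SCAP cKO lung CCR6-CD69- value rests on single libraries, since it was 0.95 without replicate 4, which held 2 counts of Egr2 (exact permutation p = 0.229), and -0.78 without the Chil3-led replicate 1 (exact permutation p = 0.600). Within batches 1 and 2 the lung CCR6+CD69+ values were 1.89 and 2.88 in WT and 1.12 and 2.12 in SCAP cKO.

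**Figure D3:**
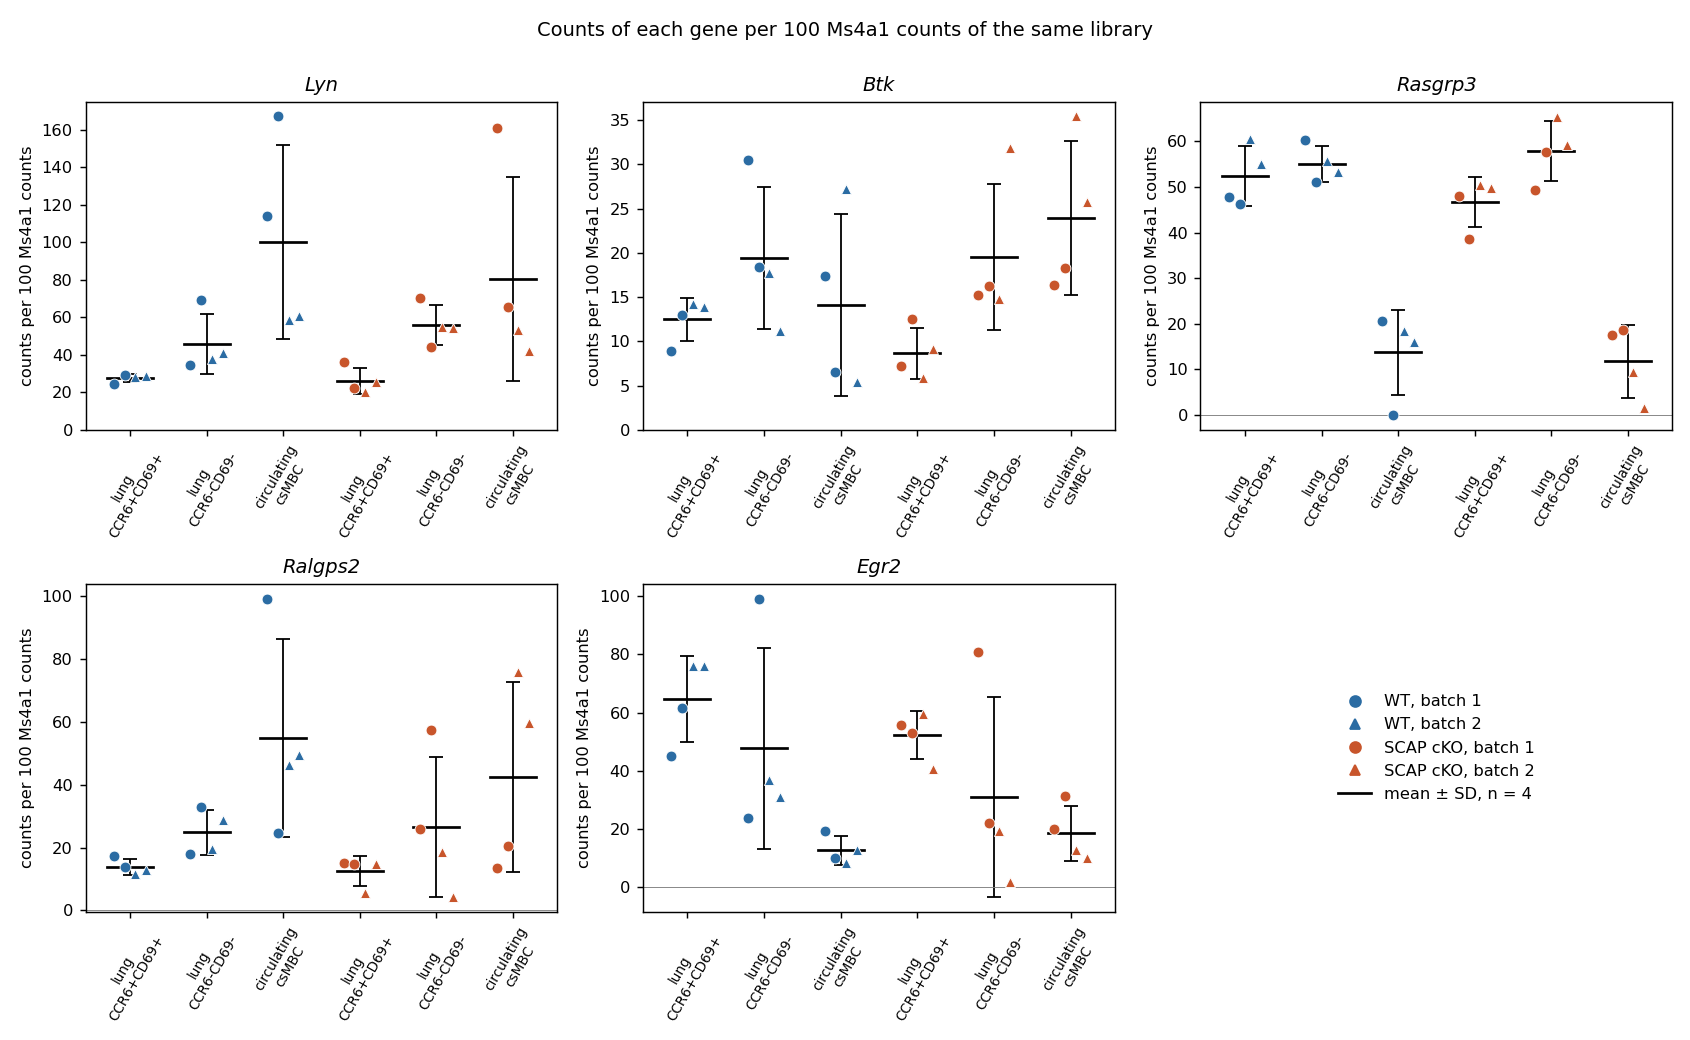
Counts of each gene per 100 counts of Ms4a1 in the same library, by group, on a linear axis. Colours and symbols mark genotype and batch, and the bars give the mean and SD of 4 libraries. Rasgrp3 lies between 38.5 and 65.4 in lung libraries and at or below 20.5 in circulating ones, and Lyn is lower in lung CCR6+CD69+ than in circulating libraries. Of all other genes tested, 16.6% in WT and 10.5% in SCAP cKO were likewise lower without overlap in that comparison. The shares higher without overlap were 2.29% and 1.14% there, and 1.22% and 0.398% for lung CCR6-CD69- against circulating libraries.

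Lyn showed the opposite order on this scale, and its WT libraries held 24.3 to 29.1 counts per 100 Ms4a1 counts when sorted as lung CCR6+CD69+, 34.6 to 69.1 when sorted as CCR6-CD69- and 58.3 to 167 when circulating. The SCAP cKO ranges were 20.3 to 36.1, 44.1 to 70.1 and 42.2 to 161. The log2 differences of lung CCR6+CD69+ from circulating libraries were -1.72 in WT and -1.46 in SCAP cKO, and those from lung CCR6-CD69- libraries were -0.67 and -1.12 (exact permutation p = 0.0286 each). The differences of WT lung CCR6+CD69+ cells in Ralgps2 were -1.83 from circulating and -0.81 from lung CCR6-CD69- cells, and those of SCAP cKO lung CCR6+CD69+ cells in Btk were -1.46 and -1.16 in the same comparisons (exact permutation p = 0.0286 each). In the other genotype the groups overlapped for both genes. Ralgps2 in SCAP cKO was at -1.52 and -0.71 (exact permutation p = 0.114 and 0.343), and Btk in WT was at 0.09 from circulating cells, on the other side of 0, and at -0.57 between lung populations (exact permutation p = 0.914 and 0.114). These differences went with the higher Ms4a1 in the denominator, and 16.6% of all other genes were likewise lower without overlap in WT lung CCR6+CD69+ against circulating cells and 10.5% in SCAP cKO. Between the lung populations the share was 8.13% in WT and 4.49% in SCAP cKO. None of the comparisons between genotypes separated the groups for any of the 5 genes on this scale, where 4.56% of all other genes did so in lung CCR6+CD69+, 2.86% in CCR6-CD69- and 2.42% in circulating cells.

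The remaining genes of the pathway were read from 6 lists by role, each count averaged over genotypes for lung CCR6+CD69+ against circulating cells, where the median log2 fold change over all genes was 0.11 and 4.87% of them were called. A single call in a list of this size is near that share and is no result about the list. Of the 8 receptor and coreceptor genes tested, 5 were above 0 and 3 below, with a median of 0.73 and no call. Of the 16 proximal kinases and adaptors, which include Lyn and Btk, 6 were above 0 and 10 below, with a median of -0.34. The only call among them was Bank1, a B cell scaffold protein with ankyrin repeats, which rose by 1.43 ± 0.44 (edgeR adjusted p = 0.0444). Bank1 is also on the B cell marker list, and Ms4a1 rose by 1.17 ± 0.29 in the same comparison. The part of B cell content in the Bank1 value was not tested. Of the 21 genes of the Ras, Ral and MAP kinase list, 11 were above 0 and 10 below, with a median of 0.08, and Rasgrp3 was the only call. The T cell relative Rasgrp1 was at -0.19 and Ralgps1, the paralog of Ralgps2, at -0.62, neither called. Of the 21 genes of the calcium, NFAT and NF-kB arm, 12 were above 0 and 9 below, with a median of 0.13, and the NF-kB subunit Rel rose by 1.08 ± 0.30 (edgeR adjusted p = 0.0209).

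Among the 17 brakes on receptor signalling, 9 were above 0 and 8 below, with a median of 0.11. The adaptors Dok3 and Pag1 rose by 1.53 ± 0.46 and 1.46 ± 0.45 (edgeR adjusted p = 0.0383 and 0.0410). Rasa3, a GTPase-activating protein that switches Ras and Rap1 off, fell by 1.76 ± 0.36 on the log2 scale (edgeR adjusted p = 6.22e-04). Rasa3 also fell in lung CCR6-CD69- cells, by 1.48 ± 0.36 (edgeR adjusted p = 0.0163). Sla2, an adaptor that lymphocytes use to turn receptor signalling down, fell by 5.24 ± 0.81 (edgeR adjusted p = 3.75e-06). NK cells and T cells also express Sla2 and Rasa3. The T cell list summed to 376 to 2340 CPM in circulating libraries and 19.4 to 181 CPM in lung CCR6+CD69+ ones, and the NK cell gene Nkg7 stood at 281 to 1354 CPM in circulating and at most 10.2 CPM in lung libraries. The part of those cells in the values was not tested.

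Most of the early response genes tested did not rise with Egr2 in lung CCR6+CD69+ against circulating cells. Of the 20 tested, 6 were above 0 and 14 below, with a median of -0.16. The listed genes without a row, among them Egr1 and Egr3, are not part of this count. The part of NK and T cell RNA in the circulating values was not tested. Besides Egr2, the MAP kinase phosphatase Dusp4 rose, by 1.73 ± 0.52 (edgeR adjusted p = 0.0413), and the chemokine gene Ccl4 fell by 5.94 ± 0.53 (edgeR adjusted p = 1.06e-12). Ccl4, which NK cells also make, averaged 729 and 748 CPM in WT and SCAP cKO circulating libraries, where the NK markers were high, and 13.8 and 12.7 CPM in lung CCR6+CD69+ ones. Fos was at -0.03 and Jun at -1.05 (edgeR adjusted p = 0.0510). The family member Egr4 averaged 8.88 ± 3.42 CPM (SD, n = 4) in WT lung CCR6+CD69+ libraries and at most 0.535 CPM in each of the other groups, SCAP cKO lung CCR6+CD69+ included, and it was called in no comparison. Those low means are under the limit of 3 counts, which was 0.646 to 23.3 CPM in the libraries of the other groups. In SCAP cKO lung CCR6+CD69+ libraries the limit was 0.717 to 1.44 CPM. In lung CCR6-CD69- against circulating cells 6 were above 0 and 14 below, with a median of -0.48 against -0.04 over all genes. There Egr2 was called higher, Ccl4 fell by 2.19 ± 0.45, and the nuclear receptor Nr4a2 fell by 2.44 ± 0.47 (edgeR adjusted p = 0.00195 and 0.00133). So 1 of the 20 was called higher and 2 lower, where 1.56% of all genes were called.

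**Figure D4:**
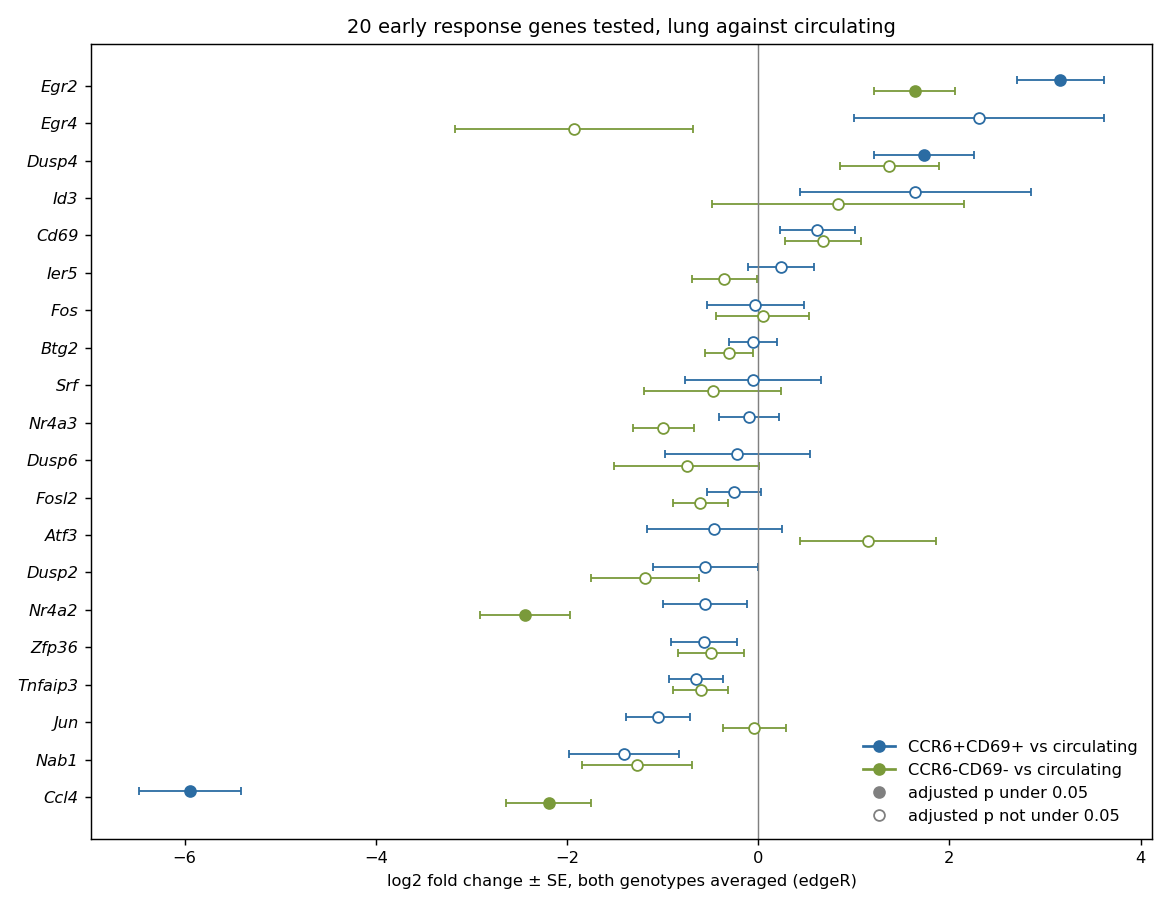
Log2 fold changes with SE of the 20 early response genes tested, for each lung population against circulating cells, averaged over genotypes. Filled points have an adjusted p under 0.05. Egr2 stands at the top, at 3.16 and 1.64, and most of the other genes lie near or below 0.

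Between the lung populations the early response list had 12 genes above 0 and 8 below, with a median of 0.35 against 0.14 over all genes. Of the 20 tested, 1 was called higher and 1 lower, where 1.45% of all genes were called. Nr4a2 rose in CCR6+CD69+ against CCR6-CD69- cells by 1.88 ± 0.45 (edgeR adjusted p = 0.0143) and Ccl4 fell by 3.75 ± 0.48 (edgeR adjusted p = 2.34e-07), while Egr2 was at 1.52 and just missed the threshold. The 11 heat shock genes tested had 5 above 0 and 6 below in lung CCR6+CD69+ against circulating cells, with a median of -0.05 and no call, and the heat shock sum ran from 5566 to 11850 CPM over all libraries. The 16 early response genes without a row, among them Egr1 and Egr3, were not analysed here.

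The genes whose levels followed the 5 genes most closely were found from Pearson correlations of log2 CPM over the 24 libraries with batch means removed, among 5133 genes with a mean of at least 20 CPM. The libraries share depth and cell make-up, so these values are descriptions. Egr2 was followed most closely by Prmt2 (r = 0.92), Ifnlr1 (0.90) and Amz1 (0.89). Rasgrp3 was closest to H2-Eb1, a class II antigen presentation gene (r = 0.89), Ms4a1 (0.86) and Rnf2 (0.85). For Btk the nearest were Thoc2l, Pum3 and Zmym6 (r = 0.82, 0.82 and 0.81), for Ralgps2 Arcn1, Map2k7 and Pole3 (0.86, 0.82 and 0.81), and for Lyn Ubxn4, Gpcpd1 and Ewsr1 (0.76, 0.75 and 0.75). Among the 5 genes, Rasgrp3 and Egr2 were the closest pair (r = 0.71), followed by Btk and Rasgrp3 (0.61). With Ms4a1, Egr2 had an r of 0.77 and Btk 0.61, whereas Lyn (0.10) and Ralgps2 (-0.02) did not follow it.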

How the data were processed

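RNA from sorted mouse B cell populations was sequenced as 24 bulk poly(A) libraries, and the deposited table holds whole-number read counts per gene, made by the authors with tools among FastQC, STAR and Salmon on the mm39 build, per the submitters' processing notes, which give no versions. Which of these tools produced the counts, and whether strand was used, is not given in the sources used here. Libraries were assigned to groups by their labels, 4 per group, and batches are those the labels name. No 2 libraries held identical values. CPM values are counts divided by the library total over the 18470 rows, without scaling factors. Fold changes come from edgeR 4.0.16 in R 4.3.3, with TMM factors, a filter on low counts by group (6779 genes kept), a robust quasi-likelihood fit with group and batch over all 24 libraries, and Benjamini-Hochberg adjustment over all genes at a threshold of 0.05. The common dispersion was 1.201, a coefficient of biological variation of 1.096. Ratios to Ms4a1 were compared as log2 of counts plus 0.5 with two-sided exact permutation tests. A gene at 0 stayed at 0 in CPM, and the limit of 3 counts, which covers counting error only, was read beside it.

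The fit was tested on simulated counts. Alternatives were relative log expression factors, library totals, DESeq2 1.42.0, limma 3.58.1 voom with quality weights, other filters, no batch term, single batches, only the groups compared, replicate blocks, and leaving out each library or the libraries under 500000 counts. Leaving out the Chil3-led libraries was chosen after seeing the data. Ratios to other reference genes are not reported here. The named genes are the 5 genes, Ms4a1, Scap, up to 4 called genes per pathway list with the smallest p, and the 3 genes most like each of the 5. Rasgrp1, Ralgps1, Egr4, Fos and Jun were named after their values were seen. The 5 genes and all lists were chosen with earlier results of these data known. Lists of other cell types were summed in the same way. The plasma cell list gave 88.3 to 303 CPM in lung CCR6+CD69+ libraries and 409 to 5096 CPM in the other groups. The dendritic cell list gave 2124 to 3638 CPM in lung CCR6+CD69+ libraries. It gave 2683 to 6846 CPM in lung CCR6-CD69- libraries and 5154 to 7746 CPM in circulating ones. Over all libraries, granulocytes gave 0.0 to 1275 CPM, epithelial and stromal cells 18.4 to 806 CPM, and red cells and platelets 0.0 to 123 CPM.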

Additional observations from a re-analysis of the deposited data

Results flagged for a closer look

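Of 66 sets of 4 libraries checked (levels and ratios of the 5 genes, and Ms4a1 levels, in the 6 groups), 3 held 1 library whose gap to the nearest of the others was large against the range of the set, and chance alone marks about 1 in 20 sets. Lyn per 100 Ms4a1 counts was 24.27 in WT lung CCR6+CD69+ replicate 1, below the other 3 at 28.4 to 29.1, a set whose whole range is narrow. Btk per 100 Ms4a1 counts was 31.86 in SCAP cKO lung CCR6-CD69- replicate 4, above the other 3 at 14.8 to 16.3, and rests on 36 counts of Btk and 113 of Ms4a1 in the smallest library. Ralgps2 per 100 Ms4a1 counts was 5.593 in SCAP cKO lung CCR6+CD69+ replicate 3, below the other 3 at 14.8 to 15.1.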

How the results depend on the processing

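Over the alternatives run, Egr2 and Rasgrp3 were both called in lung CCR6+CD69+ against circulating cells, averaged over genotypes, in all 37, with log2 fold changes of 2.65 to 3.95 and 2.68 to 3.91. Other counts of called genes moved. For WT lung CCR6+CD69+ against circulating cells (2 called) the count was 1 with only the groups compared or with batch 1 by itself, 0 with batch 2 by itself, and 1 to 2 when single libraries were left out. For WT lung CCR6-CD69- against circulating cells (1 called) it was 2 with library totals, DESeq2, no count filter and the replicate block within genotype, and 0 with voom, with no term for batch, in either batch by itself, with the replicate block and without the Chil3-led libraries (single libraries left out, 0 to 2). For SCAP cKO lung CCR6+CD69+ against circulating cells (2 called) it was 1 with voom or batch 2 by itself, and 0 with batch 1 by itself or with no term for batch (single libraries, 0 to 2). For SCAP cKO lung CCR6-CD69- against circulating cells (0 called) it was 1 with library totals, DESeq2, no filter, batch 2 alone and without the small libraries (single libraries, 0 to 1). Between lung populations (0 called), voom gave 1 in WT and DESeq2 gave 1 in SCAP cKO. Averaged over genotypes, lung CCR6-CD69- against circulating cells (2 called) gave 1 with voom, no batch term, batch 2 alone, the replicate block within genotype and without the Chil3-led libraries, and 0 in batch 1 alone (single libraries, 1 to 2). The averaged lung comparison (0 called) gave 1 with library totals, DESeq2, voom, no filter, the replicate block within genotype, and without the small or the Chil3-led libraries (single libraries, 0 to 1). Genotype comparisons and interactions called 0 of the 5 genes under every alternative run.

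Over all 5 genes and alternatives the sign changed in 10 of 555 values averaged over genotypes, 35 of 1140 within a genotype, 53 of 555 between genotypes and 65 of 555 interactions, and 0 of these were called before or after. Of the averaged values, Lyn against circulating cells was 0.34 in batch 2 alone for lung CCR6+CD69+ cells, and for lung CCR6-CD69- cells 0.0198 with relative log expression factors, 0.0130 with DESeq2 and 0.679 in batch 2 alone (single libraries, -0.346 to 0.0965). Btk between lung populations was 0.00521 with voom. Ralgps2 in batch 1 alone was 0.0644 and 0.447 for lung CCR6+CD69+ and lung CCR6-CD69- against circulating cells (single libraries, -0.685 to 0.0347 for the latter and -0.507 to 0.0770 between lung populations). Egr2 in SCAP cKO against WT was 0.293 in batch 1 alone and 0.0384 without the small libraries for lung CCR6+CD69+ cells (single libraries, -0.410 to 0.131), and -0.0872 in batch 2 alone for circulating cells. Egr2 relative to Ms4a1 in SCAP cKO lung CCR6-CD69- against circulating cells was 0.0381 and 0.304 with pseudocounts of 1 and 5, 0.754 in batch 1 alone and 0.948 without the small libraries (single libraries, -0.784 to 0.948). The cause was not tested. Within genotypes, same-numbered libraries of different populations had deviations from their group means that correlated at 0.080 to 0.228, not all above 0.1, and at -0.031 to 0.086 with batch means removed. The labels do not say whether these libraries share animals, and the numbers were not taken as pairs. With the replicate block the averaged log2 fold changes of lung CCR6+CD69+ against circulating cells were 3.17 for Egr2 and 2.96 for Rasgrp3. Library totals in place of TMM moved the averaged median of all genes in lung CCR6+CD69+ against circulating cells from 0.11 to 0.23. DESeq2 called 717, 502 and 259 genes in the 3 averaged comparisons, where edgeR called 330, 106 and 98. In SCAP cKO lung CCR6-CD69- against circulating cells, relative log expression factors gave 51 called genes, 29 of them higher, library totals 38 with 18 higher, and TMM 21 with 2 higher. Cd79a alone as the reference was not run. Depth limits the SCAP cKO lung CCR6-CD69- group most, where 3 counts of replicate 4 are 23.3 CPM.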
